A study of Mus musculus with 4 samples.

Results

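Sgk1 encodes a serum- and glucocorticoid-regulated kinase, one of the proteins through which aldosterone acts on sodium transport. Its signal was higher in sorted newborn mouse collecting duct cells targeted for deletion of the (pro)renin receptor gene than in wild-type cells sorted likewise. Sgk1 stood 2.22-fold above wild-type RNA pool 1 and 2.82-fold above pool 2. It is described here with 9 other genes of the aldosterone response and the epithelial sodium channel: the channel subunit genes Scnn1a, Scnn1b and Scnn1g, the pump modulator Fxyd4, the steroid-inactivating enzyme gene Hsd11b2, the receptor genes Nr3c2 and Nr3c1, and the steroid-induced genes Tsc22d3 and Fkbp5. The 10 genes were named by symbol, and their probes were found through the accession of each probe in a RefSeq table of the mouse genome. Of the 10, 9 had a probe, 15 probes in all, among 33390 genes or unnamed targets on the array. All 9 could be tested, among 16040 genes with signal. Nr3c2, the mineralocorticoid receptor gene, was matched by no probe and has no value here.

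Aldosterone binds the mineralocorticoid receptor in principal cells of the collecting duct, and the receptor then moves to the nucleus and switches on target genes. Sgk1 is an early target, and its kinase phosphorylates the ubiquitin ligase Nedd4l, which otherwise removes the epithelial sodium channel from the apical membrane. The channel is built from alpha, beta and gamma subunits, encoded by Scnn1a, Scnn1b and Scnn1g, and the sodium it admits leaves the cell through the basolateral sodium pump. The enzyme encoded by Hsd11b2 inactivates glucocorticoids, which would otherwise occupy the same receptor.

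The study compared gene expression in sorted collecting duct and ureteric bud cells with and without targeting of the receptor gene Atp6ap2, on 4 two-colour Agilent whole-genome arrays. Knockout cells carried the HoxB7CreEGFP transgene and the floxed receptor alleles (PRR flox/flox), and wild-type cells carried the same transgene with PRR+/+ alleles. The HoxB7 promoter drives Cre recombinase and green fluorescent protein in the ureteric bud and its derivatives, so both genotypes contain both proteins, and the receptor gene is targeted only in cells where the promoter is active. Fluorescent cells were sorted at postnatal day 1 and pooled, and 0.5 µg of total RNA entered each labelling. On 2 arrays, called knockout arrays 1 and 2 here, knockout RNA was labelled with Cy5 and wild-type pool 1 or pool 2 with Cy3. On the other arrays a wild-type pool, 1 or 2, was labelled with both dyes. The labels do not number the knockout pools on the arrays and do not state how many animals each pool held, so p-values reflect the spread among these 4 arrays alone, and that spread may be technical. Array titles name the groups the other way round from the channel sources. The channel sources were followed, and every direction below would turn if the titles were right. The descriptions also swap pools 1 and 2 between the self arrays, which would swap the names of the pools below. Across genes, Cy3 of knockout array 2, which its source and description both call pool 2, correlated at r = 0.996 with Cy3 of the self array sourced as pool 2 and at 0.953 with that of the other.

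The Cy3 channel of knockout array 1 was almost empty, with 32 of 41174 probes well above background, so comparisons rest on Cy5 of all 4 arrays and on Cy3 of the 3 arrays that carried signal. In Cy5, 22734 and 20814 probes were well above background on the knockout arrays and 20038 and 18433 in wild-type pools 1 and 2. Wild-type pool 2 stood apart: its Cy5 profile correlated across genes at r = 0.948 to 0.953 with the other arrays, which correlated at 0.986 to 0.995 among themselves, and differences against pool 1 alone are therefore given for all 9 genes. Atp6ap2 itself had Cy5 levels of 8.08 and 7.72 on the knockout arrays, against 8.37 and 8.51 in wild-type pools 1 and 2, a difference of -0.54 ± 0.17 (SE, limma adjusted p = 0.803). Whether its probe falls in the deleted stretch was not tested, so the level checks the labels only in part. Principal cell markers were measured on every array, with 10 of 10 listed genes tested. Their summed level, on the linear scale of normalized Cy5 signal, was 52093 to 54705 in knockout cells and 46683 to 51964 in wild-type pools. This sum is weighted to the brightest probes, those of the keratin genes Krt18 and Krt8. Both knockout arrays lay above both pools in 3 of the 10 genes, against 22.4% of all genes. They lay below both pools in 4 of the 10, against 17.3% of all genes. In RNA from a cell population, fewer cells of a type and less RNA per cell cannot be told apart.

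Levels below are log2 of the Cy5 signal after background correction and quantile normalization. A constant was added to all signals before the logarithm, so folds of dim genes are understated, and a level ranks arrays for 1 probe and not probes against each other. Of the 9 measured genes, 8 had a positive difference between knockout and wild type, where 55.2% of all tested genes did. In 6 genes (Sgk1, Scnn1a, Scnn1b, Scnn1g, Fxyd4 and Fkbp5) both knockout arrays lay above both wild-type pools, which held for 22.4% of all genes, and in no gene did both lie below, against 17.3% of all genes. In Hsd11b2, Nr3c1 and Tsc22d3 the arrays of the genotypes overlapped. The median difference of the 9 genes was 0.41, beside 0.02 over all genes tested.

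No gene of the array passed the threshold of 0.05 after adjustment over 16040 genes (limma), so percent called was 0 in each direction. At an unadjusted p under 0.05, limma gave 673 genes, and 496 of them, or 3.09% of all genes, were higher in knockout. These 496 include 5 of the 9 genes described here: Sgk1, Scnn1a, Scnn1b, Scnn1g and Fxyd4. The absence of adjusted calls rests on the wild-type arrays: without pool 1, limma called 2534 genes higher (15.8% of all genes) and 1698 lower, and without pool 2 it called 4 higher and 0 lower. Without pool 1 the differences were 1.49 for Sgk1, 0.39 for Scnn1a, 0.76 for Scnn1b, 0.94 for Scnn1g and 0.87 for Fxyd4. Without pool 2 they were 1.15, 0.43, 0.37, 0.37 and 0.40 in the same order. In such a fit a single wild-type array is assumed to vary like the knockout arrays.

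**Figure D1:**
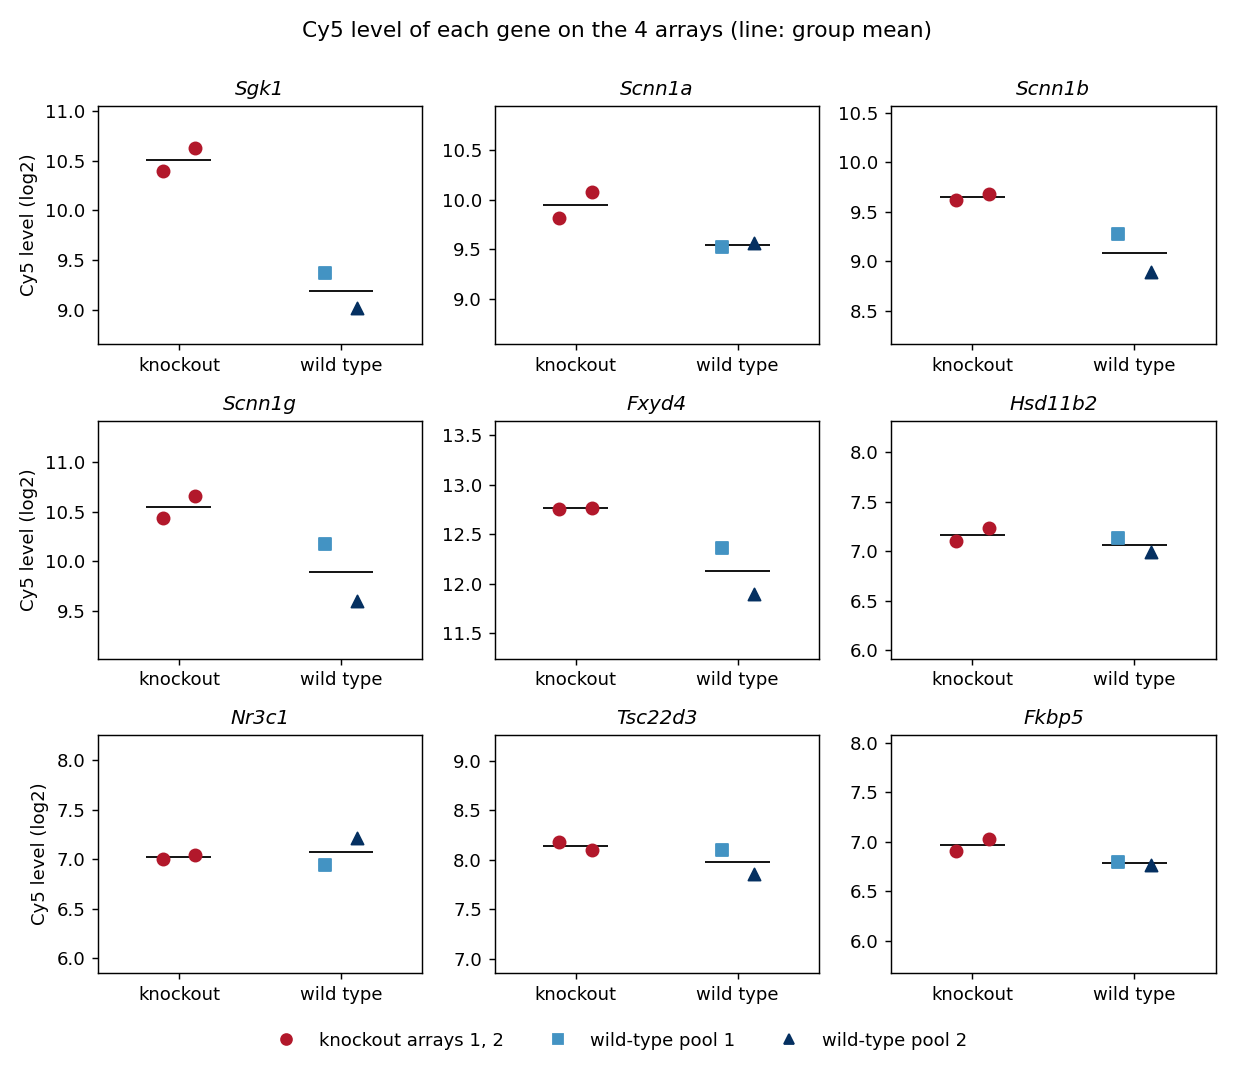
Normalized Cy5 level (log2) of the 9 measured genes on each array, with knockout arrays on the left of each panel and wild-type pools on the right. In 6 panels both knockout points lie above both wild-type points, and in those of Hsd11b2, Nr3c1 and Tsc22d3 they overlap.

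Sgk1 had Cy5 levels of 10.40 and 10.63 on knockout arrays 1 and 2, against 9.36 and 9.02 in wild-type pools 1 and 2. The groups were separated by more than the distance between arrays of a group. Its difference was 1.32 ± 0.17 (SE, 95% interval 0.87 to 1.77), a mean fold of 2.50, with a limma unadjusted p of 7.76e-04 and an adjusted p of 0.803. Background-subtracted Cy5 intensities before normalization were 1831 and 1370 on the knockout arrays and 510 and 380 in pools 1 and 2. Sgk1 was also the only gene of the 9 whose knockout mean was at least 1.5-fold above each pool taken alone, a size reached by 0.53% of all genes. By array, its difference was 1.15 against pool 1 and 1.49 against pool 2. Over the 13 other processing settings tried, its difference was between 0.79 and 1.62. The lowest value came from the ratio of the dyes, which includes the array with the empty channel.

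The sequence before transcription starts of Sgk1, Tsc22d3 and Fxyd4 is shown because steroid receptors of this class bind pairs of the letters AGAACA facing each other across 3 bases, and because these genes differ in whether the letters are present. Windows of 300 bases, 250 before and 50 after an annotated start, were taken from RefSeq (GRCm38.p6), and 7 of the 10 genes had at least 1 window, 14 windows in all. The full pair, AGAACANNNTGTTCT, was searched on both strands and lies in 3 of 32851 windows of all genes (0.00913%), 1 of them in 1 of the 6 windows of Sgk1. The single site AGAACA, or TGTTCT on the other strand, lies in 6233 windows (19.0%), among them 3 of the 6 Sgk1 windows and 1 of the 3 Tsc22d3 windows. The windows of Scnn1b, Scnn1g, Fxyd4, Nr3c2 and Fkbp5, 1 for each gene, hold neither. In the lines that follow, each 5′ to 3′ on the strand of the gene, capitals mark every AGAACA or TGTTCT. The Sgk1 window lies at chr10:21993640-21993939 (+), the Tsc22d3 window at chrX:140600473-140600772 (-) and the Fxyd4 window at chr6:117937286-117937585 (-).
Sgk1: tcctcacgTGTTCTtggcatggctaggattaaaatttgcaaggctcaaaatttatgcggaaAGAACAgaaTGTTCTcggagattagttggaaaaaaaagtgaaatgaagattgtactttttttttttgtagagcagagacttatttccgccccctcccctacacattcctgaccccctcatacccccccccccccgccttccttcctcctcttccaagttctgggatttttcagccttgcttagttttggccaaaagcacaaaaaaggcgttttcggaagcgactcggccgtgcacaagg
Tsc22d3: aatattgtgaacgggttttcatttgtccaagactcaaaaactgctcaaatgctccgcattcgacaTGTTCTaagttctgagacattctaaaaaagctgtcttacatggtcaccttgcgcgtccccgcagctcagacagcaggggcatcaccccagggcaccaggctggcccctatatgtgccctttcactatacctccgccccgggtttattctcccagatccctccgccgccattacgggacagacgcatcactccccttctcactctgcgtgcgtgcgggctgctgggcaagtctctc
Fxyd4: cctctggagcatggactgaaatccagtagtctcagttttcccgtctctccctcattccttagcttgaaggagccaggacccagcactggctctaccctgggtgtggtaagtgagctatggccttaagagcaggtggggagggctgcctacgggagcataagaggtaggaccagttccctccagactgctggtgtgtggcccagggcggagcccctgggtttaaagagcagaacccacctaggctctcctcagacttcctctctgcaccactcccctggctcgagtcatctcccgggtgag
In the Sgk1 window the full pair begins 189 bases before the start and contains both of its single sites, and another single site stands further upstream. The Tsc22d3 window holds 1 single site, 185 bases before the start, and the Fxyd4 window holds none. A match of letters is a description of the sequence. Binding was not measured, nor was the start from which the RNA came.

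The channel subunit genes were each higher in knockout by less than Sgk1. Scnn1a, the alpha subunit, had Cy5 levels of 9.82 and 10.08 on the knockout arrays, against 9.52 and 9.56 in wild-type pools 1 and 2. The knockout levels lay above both pools, and the pools differed little. The difference was 0.41 ± 0.14 (SE, 95% interval 0.05 to 0.77, limma unadjusted p = 0.0330, adjusted p = 0.803), or 1.35-fold over pool 1 and 1.31-fold over pool 2. A second Scnn1a probe was not well above background on any array.

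Scnn1b, the beta subunit, had Cy5 levels of 9.62 and 9.68 on the knockout arrays, against 9.28 and 8.89 in wild-type pools 1 and 2. The knockout arrays lay close together, and the pools were further apart than the knockout arrays. Its difference was 0.56 ± 0.17 (SE, 95% interval 0.13 to 1.00, limma unadjusted p = 0.0207, adjusted p = 0.803). By pool it was 1.30-fold over pool 1 and 1.69-fold over pool 2.

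Scnn1g, the gamma subunit, had Cy5 levels of 10.44 and 10.65 on the knockout arrays, against 10.17 and 9.60 in wild-type pools 1 and 2. Here too both knockout arrays lay above both pools, with pool 1 the nearer. The difference was 0.66 ± 0.23 (SE, 95% interval 0.07 to 1.25, limma unadjusted p = 0.0349, adjusted p = 0.803), 1.30-fold over pool 1 and 1.92-fold over pool 2. Against pool 1 the 3 subunit genes thus stood at 1.30- to 1.35-fold, and their spread in the mean difference lay in pool 2.

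Fxyd4, which encodes a small protein of the collecting duct that associates with the sodium pump and alters its sodium affinity, followed the beta and gamma subunits. Its Cy5 levels were 12.76 and 12.77 on the knockout arrays, against 12.36 and 11.90 in wild-type pools 1 and 2. The knockout arrays lay above both pools and were nearly equal. The difference was 0.64 ± 0.19 (SE, 95% interval 0.15 to 1.12, limma unadjusted p = 0.0203, adjusted p = 0.803), or 1.32-fold over pool 1 and 1.83-fold over pool 2.

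**Figure D2:**
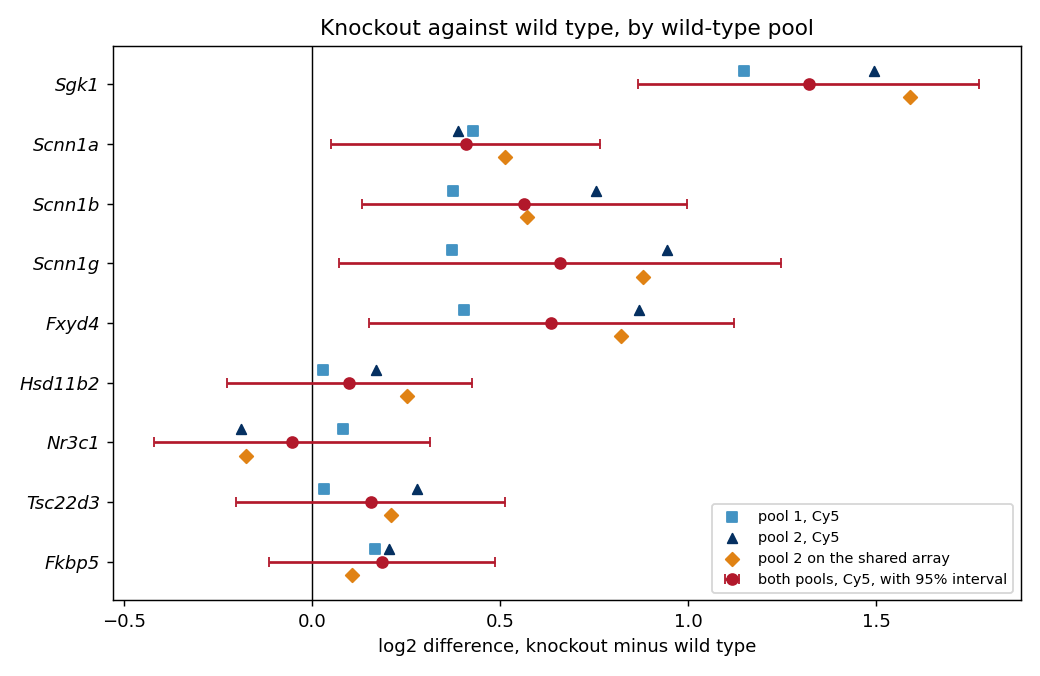
Difference in normalized Cy5 level (log2, knockout minus wild type) of the 9 measured genes with its 95% interval from limma (circles), against pool 1 alone (squares), against pool 2 alone (triangles), and against pool 2 on the array that carries both (diamonds). The intervals of Sgk1, Scnn1a, Scnn1b, Scnn1g and Fxyd4 lie above 0 before adjustment for the number of genes, and those of the other 4 genes include 0.

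The enzyme and receptor genes were dim and did not separate the genotypes. Hsd11b2 had Cy5 levels of 7.10 and 7.23 on the knockout arrays, against 7.14 and 7.0 in wild-type pools 1 and 2. The ranges overlapped, and the difference was 0.10 ± 0.12 (SE, 95% interval -0.23 to 0.42, limma adjusted p = 0.847). With each array scaled to its 75th percentile the difference was -0.045, so its direction is not settled.

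Nr3c1, the glucocorticoid receptor gene, had Cy5 levels of 7.0 and 7.05 on the knockout arrays, against 6.94 and 7.22 in wild-type pools 1 and 2. The knockout arrays lay between the pools. The difference was -0.05 ± 0.14 (SE, 95% interval -0.42 to 0.31, limma adjusted p = 0.928), without pool 2 it was 0.083, and with the scanner's processed signal it was -0.54. Another probe gave -0.12, and the remaining one was not well above background on any array. These intervals still allow differences of the size seen for Scnn1a in Hsd11b2, and of that size downwards in Nr3c1.

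Tsc22d3, also known as Gilz, is a leucine zipper gene induced by glucocorticoids and aldosterone. It had Cy5 levels of 8.18 and 8.10 on the knockout arrays, against 8.10 and 7.86 in wild-type pools 1 and 2. The lower knockout array and pool 1 were nearly equal. The difference was 0.16 ± 0.14 (SE, 95% interval -0.20 to 0.51, limma adjusted p = 0.810), and a second probe gave 0.03.

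Fkbp5, an immunophilin that binds steroid receptor complexes and is itself induced by steroids, had Cy5 levels of 6.91 and 7.03 on the knockout arrays, against 6.80 and 6.76 in wild-type pools 1 and 2. The knockout arrays lay above both pools by a small margin. The difference was 0.19 ± 0.12 (SE, 95% interval -0.11 to 0.49, limma adjusted p = 0.803). A second probe was well above background on both knockout arrays and on neither wild-type array, so it entered through the knockout arrays alone. Its difference was 0.14 (95% interval -0.18 to 0.46), which leaves its direction unsettled. The remaining probe was not well above background on any array. With each array scaled to its 75th percentile the Fkbp5 difference was -0.045, and with the scanner's processed signal it was 0.50.

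Pool 1 exceeded pool 2 in 7 of the 9 genes (54.7% of all genes), and knockout array 2 exceeded knockout array 1 in 8 of 9 (51.8% of all genes). Both knockout arrays lay above pool 1 in 7 of the 9 genes (38.6% of all genes) and above pool 2 in 8 of 9 (49.2% of all genes). The median difference of the 9 genes was 0.37 against pool 1 and 0.39 against pool 2. For the genes not given by pool above, the difference against pool 1 was 0.028 for Hsd11b2, 0.032 for Tsc22d3 and 0.17 for Fkbp5. These comparisons share the knockout arrays.

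**Figure D3:**
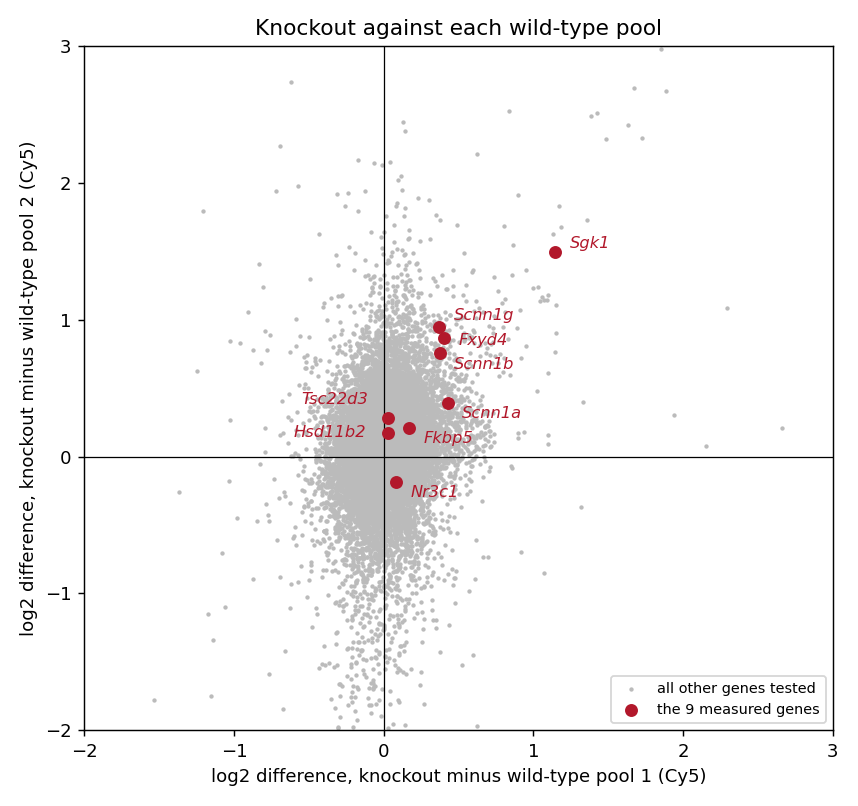
Differences in Cy5 level (log2) of knockout against wild-type pool 1 (horizontal) and against pool 2 (vertical) for all 16040 genes tested, with the 9 measured genes marked in red and 136 genes outside the axes not drawn. Both axes share the knockout arrays. Sgk1 stands at 1.15 and 1.49, and Scnn1b, Scnn1g and Fxyd4 lie further along the pool 2 axis than along the pool 1 axis.

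Knockout array 2 carries pool 2 in its Cy3 channel, so there the genotypes can be compared on the same spots. Less the ratio of the self array of pool 2, which measures the dye effect of each probe, Sgk1 was 3.01-fold higher in knockout, a log2 difference of 1.59. The differences were 0.88 for Scnn1g, 0.82 for Fxyd4, 0.57 for Scnn1b and 0.51 for Scnn1a. Sgk1, Scnn1g and Fxyd4 exceeded 1.5-fold, which 5.75% of all genes did in that direction. Hsd11b2 stood at 0.25, Tsc22d3 at 0.21, Fkbp5 at 0.11 and Nr3c1 at -0.18. This comparison rests on 1 knockout channel without a replicate and has no test. The dye effect mattered for 2 subunits: with the same pool in both dyes, Cy5 over Cy3 stood at 0.22 and 0.23 for Scnn1b in pools 1 and 2 and at 0.25 and 0.13 for Scnn1g.

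Normalizing the 7 usable channels together gave the wild-type pools in both dyes. Sgk1 had levels of 9.83 and 10.06 in the knockout channels. Pool 1 read 8.84 in Cy5 and 8.89 in Cy3, and pool 2 read 8.51 in Cy5 and 8.54 and 8.47 in its Cy3 channels. For Sgk1 each pool was therefore nearly the same in either dye, and both knockout channels lay above all 5 wild-type channels. Both knockout channels also lay above all 5 for Scnn1a, Scnn1b, Scnn1g, Fxyd4 and Fkbp5. That makes 6 of the 9 genes, against 12.2% of all genes. Not all of these were alike in the 2 dyes: in pool 1 Scnn1g read 9.62 in Cy5 and 9.39 in Cy3, and Scnn1b 8.76 and 8.56. Both knockout channels are Cy5, and the part of the dye in this count was not tested. For Fkbp5 the margin was small, 6.76 in the lower knockout channel against 6.75 in the highest wild-type channel. Channels of a pool share RNA and are not replicates.

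**Figure D4:**
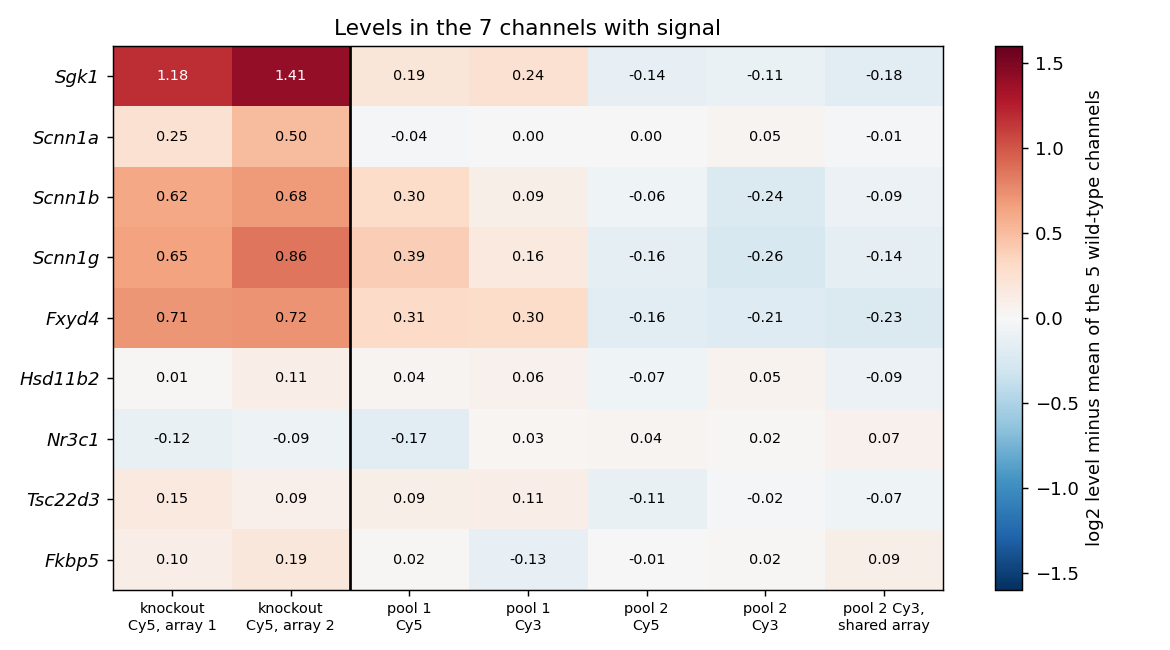
Heat map of the 9 measured genes (rows) in the 7 usable channels (columns, knockout first). Each cell gives the log2 level, with all channels normalized together, minus the gene's mean over the 5 wild-type channels. In 6 genes both knockout cells exceed all wild-type cells of the row.

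Across these 7 channels, which share pools, arrays and dyes, the levels of Scnn1b (r = 0.951), Scnn1g (0.945), Fxyd4 (0.942) and Scnn1a (0.912) followed Sgk1 most closely of the other genes described. Tsc22d3 stood at 0.726, Fkbp5 at 0.597, Hsd11b2 at 0.595 and Nr3c1 at -0.639. Of 1031 named genes that varied enough across the channels, the 5 most like Sgk1 were Hspa1a (r = 0.995), Slc2a1 (0.995), Padi2 (0.991), Hps4 (0.991) and Sprr2f (0.988). Hspa1a encodes an inducible heat shock protein and Slc2a1 a glucose transporter. Their Cy5 differences were 0.83 ± 0.14 for Hspa1a and 0.88 ± 0.16 for Slc2a1 (SE, limma adjusted p = 0.803 for each).

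Of 25 tested regulators of the channel other than Sgk1, 12 were higher and 13 lower in knockout, with a median difference of -0.01. Both knockout arrays lay above both pools in 4 of the 25 and below both in 5, near the 22.4% and 17.3% of all genes, so the counts do not set these regulators apart. Pdpk1, the kinase that activates Sgk1, had the largest difference of the list, 2.73 ± 0.70 (SE, limma adjusted p = 0.803), but 2 other Pdpk1 probes gave -0.22 and -0.16. St14, a membrane serine protease that activates other proteases, differed by 0.41, with a second probe at -0.09. Sgk2, a paralogue of Sgk1, had a Cy5 level of 6.92 and 6.73 on the knockout arrays, against 6.98 in pool 1 and 8.95 in pool 2, so its mean difference of -1.14 came almost wholly from pool 2. Usp8, a deubiquitinating enzyme, differed by -0.32, and by -0.07 on the array that carries both genotypes. Its probe was dim, with Cy5 levels of 6.72 and 6.76 on the knockout arrays and 6.97 and 7.15 in pools 1 and 2.

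Of 25 other tested genes induced by steroid receptors, 13 were higher and 12 lower in knockout, with a median difference of 0.06. Both knockout arrays lay above both pools in 6 and below both in 6, beside 22.4% and 17.3% of all genes, again near the shares of the whole array. Per1, a clock gene that aldosterone induces in collecting duct cells, had Cy5 levels of 7.91 and 8.19 on the knockout arrays, against 7.27 and 7.30 in pools 1 and 2. The pools were close together, and the difference was 0.76 ± 0.14 (SE, limma adjusted p = 0.803), 0.78 against pool 1 and 0.75 against pool 2. Ddit4, a stress- and glucocorticoid-induced inhibitor of mTOR signalling, differed by 0.72 ± 0.20 (SE). Angptl4 differed by -1.91 and the potassium channel gene Kcnj1 by -1.14, and in both most of the difference came from pool 2, at -3.23 and -2.10, against -0.59 and -0.18 from pool 1.

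Receptor chaperones and steroid-handling genes had a median difference of -0.03 over 19 genes, 9 higher and 10 lower. Among those whose genotypes did not overlap, Abcb1b differed by 0.43, the co-repressor gene Ncor1 by 0.24 and the co-chaperone gene Bag1 by -0.23. The Abcb1b difference was 0.71 against pool 1, 0.15 against pool 2 and -0.11 on the shared array. Other Ncor1 probes gave -0.36 and 0.20, so the direction of Ncor1 is not settled. The other sodium pump and Fxyd genes had a median of -0.19 over 8 genes, 3 higher and 5 lower, with Fxyd5 at 0.26 and Fxyd3 at -0.22. No gene of these lists had an adjusted p under 0.05 (limma). The median over all genes was 0.02.

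Markers of cell types moved between the same arrays. Principal cell genes were mixed, 6 higher and 4 lower of 10 with a median of 0.10: the water channel genes Aqp2 and Aqp3 differed by 0.73 and 0.41, and Calb1 by -0.57. Proximal tubule genes were lower in 7 of 7, with a median of -1.90, at -0.60 against pool 1 and -3.81 against pool 2. Their summed linear level was 2264 to 3361 on the knockout arrays and 4618 to 40351 in the pools. Loop and distal tubule genes were lower in 5 of 5, with a median of -0.98 and summed levels of 1873 to 2040 in knockout and 2300 to 8406 in the pools.

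Ureteric tip genes were lower in 5 of 7 with a median of -0.47, and urothelial genes in 6 of 6 with a median of -0.84. Of all genes, 55.2% were higher in knockout. The summed level of the tip genes overlapped, at 4452 to 4591 in knockout and 4331 to 5013 in the pools. That of the urothelial genes was 2824 to 3183 in knockout and 5098 to 8585 in the pools. Genes of the immediate early response are induced within minutes by many stimuli, cell handling included. The list of them used here also holds the heat shock gene Hspa1a. The genes of this list were higher in 10 of 10 with a median of 0.26, at 0.38 against pool 1 and 0.26 against pool 2. Their summed level was 16604 to 18619 in knockout and 13727 to 13948 in the pools, without overlap. Intercalated cell genes had a median of -0.06 over 8 genes, 3 higher and 5 lower. Their summed level was 8015 to 8881 in knockout and 5096 to 6732 in the pools, also without overlap. That sum is weighted to its brightest probe, that of Rhcg, which differed by 0.88. Stromal genes had a median of 0.12, endothelial genes -0.08, erythroid genes 0.09, leukocyte genes -0.12, and nephron progenitor and podocyte genes -0.28, over 8, 7, 3, 5 and 3 tested genes. Of these other cell types the markers Six2, Nphs1, Tek, Cd3e and Pvalb were among those well above background on no array. The part of these shifts in the differences of Sgk1, the channel subunits and Fxyd4 was not tested. Tubule markers differed less against pool 1 than against pool 2, and immediate early genes differed more. Against pool 1 the proximal tubule and urothelial medians were still -0.60 and -0.39. There Sgk1 stood at 2.22-fold, Scnn1a at 1.35-fold, Fxyd4 at 1.32-fold and Scnn1b and Scnn1g at 1.30-fold.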

How the data were processed

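Agilent two-colour whole mouse genome arrays, 4 on 1 slide and 1 scan, were analysed from the deposited scanner output, read with Agilent Feature Extraction 10.7.3.1 per the file headers. The authors deposited each spot's median and background intensity in Cy5 and Cy3, a processed intensity corrected for background and dye bias, and its log10 ratio of Cy5 over Cy3, as the file headers state. The authors' deposited series table equals that log10 ratio within 0.001 at 45018 of 45018 spots of each array.

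Here the Cy5 median signals of 4 arrays were background corrected (normexp, offset 50) and quantile normalized, and limma 3.58.1 (R 4.3.3) tested the log2 values, two-sided, with Benjamini-Hochberg adjustment over all genes. Control spots, flagged spots and a dark patch of 350 spots on the pool 1 self array, which held no probe of the genes described, were left out. A probe entered when both arrays of a genotype had it well above background in Cy5. The brightest probe stood for a gene. Of 41174 probes, 22951 matched a RefSeq symbol (GRCm38.p6). The shared-array difference used normexp and loess within the array. No spot was saturated. With 2 arrays a group, an exact permutation test cannot go below p = 0.333, and the number of arrays limits the precision.

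The genes, lists and tests were chosen with earlier results of these data known. All 10 genes are named, and of each list up to 4 genes with the largest difference among those whose genotypes did not overlap; a few genes chosen by this rule are not reported here. Genes most like Sgk1 were ranked by Pearson correlation over 7 channels, with an SD of at least 0.3. Scripts were tested on simulated data. Other settings changed the background correction, offset, scaling, filter, probe rule, patch, dye use, pairing and arrays used. Counts by pool and over 7 channels were added after seeing the data.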

Additional observations from a re-analysis of the deposited data

How the results depend on the processing

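The Cy5 differences of the 9 measured genes were recomputed under 13 other settings. Those of Sgk1, Scnn1a, Scnn1b, Scnn1g, Fxyd4 and Tsc22d3 stayed positive under all of them. Hsd11b2 and Fkbp5 each stood at -0.045 with scaling to the 75th percentile, and Nr3c1, at -0.19 to 0.083 when 1 array was left out, was positive without pool 2. With the scanner's processed signal Nr3c1 stood at -0.54 and Fkbp5 at 0.50. The median difference of the 9 genes was 0.61 with the 75th percentile and 0.14 as a log ratio of both dyes, and 0.28 to 0.54 when 1 array was left out. Leaving out 1 array gave 0 to 2534 genes higher and 0 to 1698 lower at an adjusted p under 0.05 (limma), and the log ratio without knockout array 1 gave 3036 higher and 2245 lower. Each such fit has 1 array in a group. With the replicate block the median was 0.41, 0 genes passed and 602 had an unadjusted p under 0.05. Deviations of Cy5 from the group mean on the same-numbered arrays, whose Cy5 channels hold different RNA, correlated across genes at r = 0.0400. With 2 arrays a group, both array numbers give the same value. The array number was therefore not taken as a pairing. On the shared array the processed signals gave a median of 0.79. For 2 dim probes they gave -0.41 (Fkbp5) and 1.00 (Hsd11b2), against 0.11 and 0.25 in the main setting. The cause of these shifts was not tested. Hsd11b2, Nr3c1 and Fkbp5 lie near background, where the added constant compresses differences.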
